A study of Mus musculus with 1183 samples.

Results

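The 10 genes described here are Hmox1, Nqo1, Gclc, Gclm, Srxn1, Txnrd1, Slc7a11, Prdx1, Txn1 and Gsr, which were taken by symbol from a read count table of 18072 mouse genes. They encode enzymes and a transporter of the oxidant response that the transcription factor Nrf2 is known to drive, and all 10 had reads in these cells. They were measured in 1183 single immune cells of the distal lung, 598 from 1 female mouse and 585 from 1 male mouse, both at postnatal day 7 after hyperoxia (raised oxygen). CD45, a marker of leukocytes, had been used to sort 1173 of them, and 10 lay on other plates. The labels give each cell a subtype and name the mouse it came from. The oxygen level, the length of exposure and the strain are not given in the labels, and no animals in room air were analysed here, so no value below is an effect of hyperoxia. Each sex has 1 animal, so sex and animal cannot be told apart.

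Nrf2 is held in the cytoplasm by Keap1, which passes it on for degradation. Oxidants and electrophiles modify Keap1, Nrf2 then reaches the nucleus, and with small Maf proteins it binds antioxidant response elements near its target genes, where Bach1 competes with it. In lung macrophages and neutrophils this pathway is known for restoring glutathione and reduced thioredoxin and for degrading heme.

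Promoter sequence was read for the members that have an entry in the RefSeq table of windows from 250 bases before to 50 bases after a gene's start (build GRCm38.p6). The windows were searched on both strands for the antioxidant response element core (ARE core), spelled TGACNNNGC or TGAGNNNGC, for the AP-1 element TGAGTCA, which can overlap the ARE core, and for the Atf4 element TGATGCAA. Of 32851 windows of this length, 27.8% hold an ARE core, 5.20% an AP-1 element and 0.895% an Atf4 element. Hmox1, Gclc and Gsr have no entry, and the windows of Nqo1 and Txn1 hold none of these letters. The 5 stretches below show how the matches lie upstream of the start, 5′ to 3′ on the strand of the gene, with ARE core and Atf4 element letters in capitals.
Srxn1, chr2:152105351-152105502, + strand: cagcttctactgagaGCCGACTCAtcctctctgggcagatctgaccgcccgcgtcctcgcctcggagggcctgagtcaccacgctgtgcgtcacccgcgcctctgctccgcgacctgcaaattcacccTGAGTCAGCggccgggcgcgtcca
Prdx1, chr4:116685451-116685489, + strand: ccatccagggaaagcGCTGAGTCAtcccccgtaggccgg
Slc7a11, chr3:50443638-50443725, - strand: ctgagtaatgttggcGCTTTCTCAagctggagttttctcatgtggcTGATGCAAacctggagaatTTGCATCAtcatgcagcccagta
Gclm, chr3:122245408-122245446, + strand: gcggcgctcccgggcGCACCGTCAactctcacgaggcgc
Txnrd1, chr10:82859099-82859137, + strand: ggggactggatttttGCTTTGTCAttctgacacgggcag
Srxn1 has 2 ARE cores in the stretch shown, 1 on each strand, and the one nearer the start contains an AP-1 element. A further AP-1 element of Srxn1, left in lower case, lies between them. The ARE core shown for Prdx1 also contains an AP-1 element, and those of Gclm and Txnrd1 do not. Srxn1 and Prdx1 each have a further ARE core after the start, without an AP-1 element, and Prdx1 a further AP-1 element upstream, which are not shown. Slc7a11 is the member whose window holds an Atf4 element, in 2 copies that point towards each other downstream of its ARE core. A match describes the letters only and is not a bound site.

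Each cell held from 16753 to 7560179 reads, with a median of 1100966, and the median by subtype was lowest in neutrophils, at 589006.5 reads. Levels are CPM, counts scaled to the library's total reads, where a library is the sum of the cells of one subtype in one animal. They are computed here without length, so a level is compared between subtypes and not between genes. Where a pair of values follows a subtype, the first is from the female and the second from the male. The labels name 16 subtypes, and 15 of them have at least 5 cells in each animal. The markers of each class in the tests were checked: neutrophil markers summed to 92964 and 107674 CPM in neutrophils against 87.6 and 95.7 CPM in Mac III, and C1q and Apoe transcripts summed to 32729 and 42516 CPM in Mac IV against 157.5 and 57.9 CPM in Mac III. In Mac III, the alveolar macrophage genes Ear1, Car4, Chil3 and Marco summed to 2613 and 2487 CPM. In Mac IV they summed to 1021 and 354.98 CPM, and in neutrophils to 899 and 812 CPM. The Mac V markers Plac8, Ly6c2, Ace and Ifitm6 summed to 4725 and 6374 CPM in Mac V, and 2 of the 4 were highest there in both animals. They summed to 1440 and 2200 CPM in basophils and to 1400 and 2003 CPM in B cells. Basophil markers summed to 8520 and 14030 CPM in basophils and to 1914 and 1476 CPM in mast cells. Erythroid markers were at 8.72 and 2236 CPM in Mac IV, and at 21.4 and 5135 CPM in neutrophils, and at 1711 and 0 CPM in basophils. Epithelial markers were at 59.3 and 10782 CPM in DC I. The part of these markers in the values of those subtypes was not tested.

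**Figure D1:**
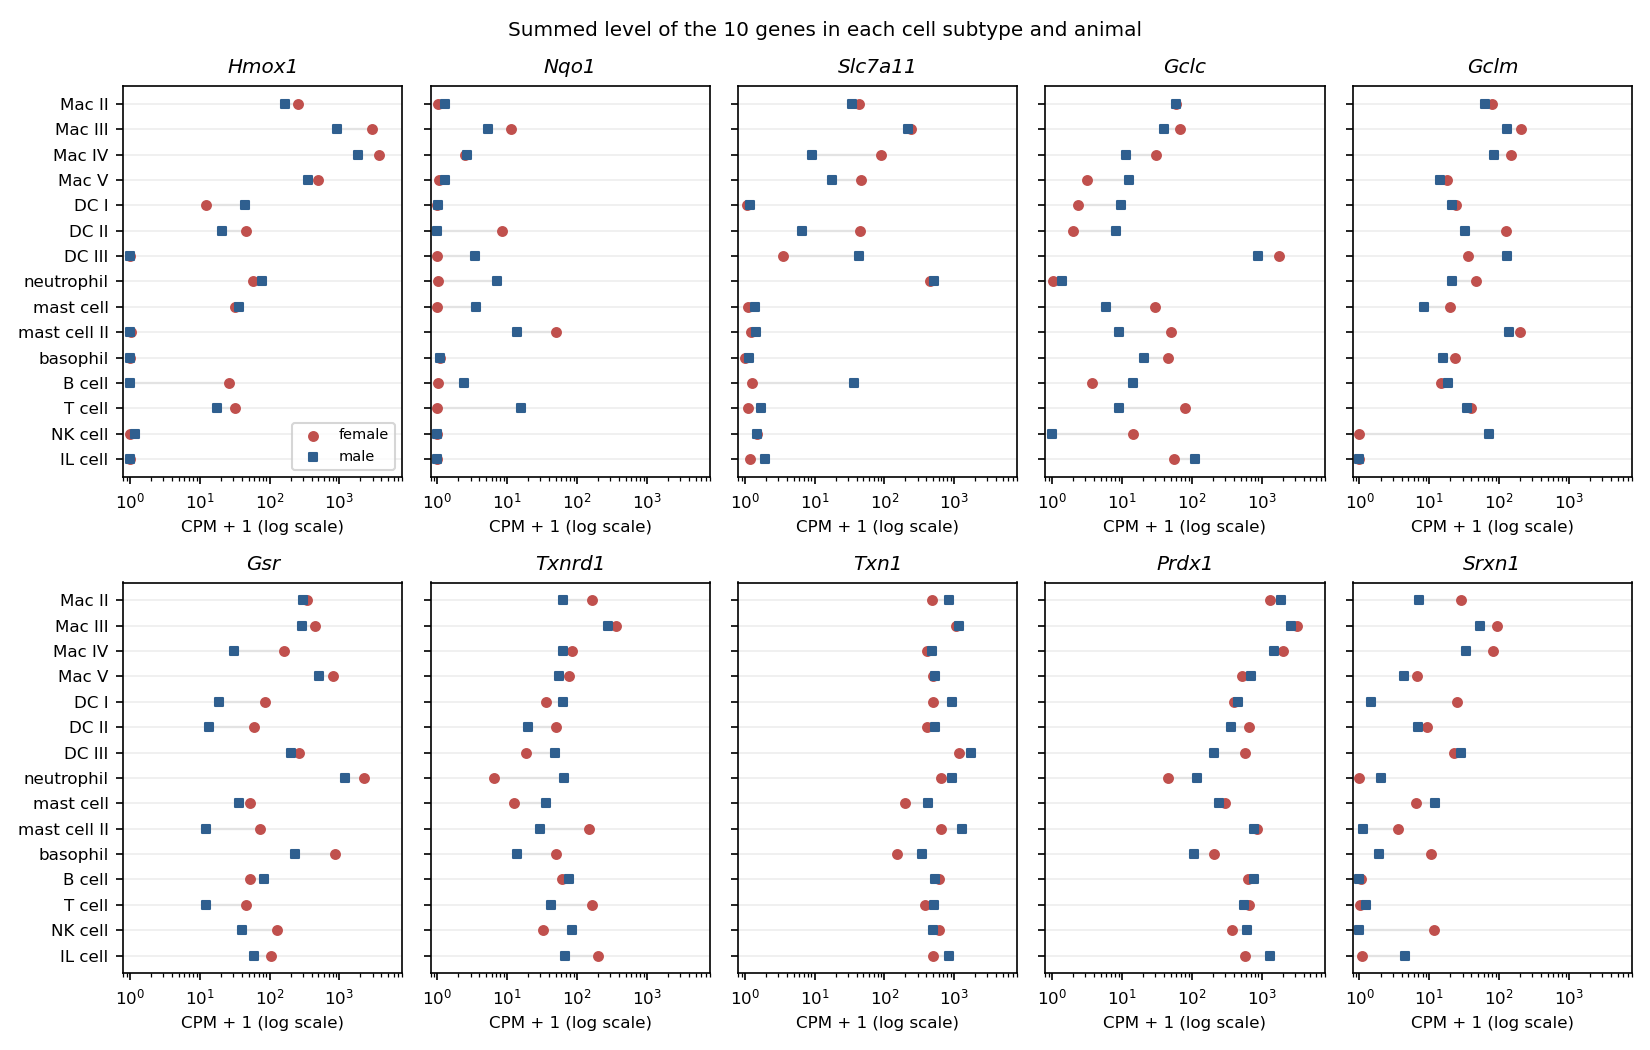
Summed level of each of the 10 genes in 15 cell subtypes, as CPM plus 1 on a log scale; each circle is the female and each square the male, joined by a line. Hmox1 is highest in Mac IV and Mac III, Gclc stands alone in DC III, and Gsr and Slc7a11 are highest in neutrophils. Prdx1 is lowest in neutrophils of the female and in basophils of the male.

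Hmox1, heme oxygenase 1, which opens the heme ring and releases iron, was a gene of the macrophage subtypes. Its level was 3744 and 1840.1 CPM in Mac IV and 2973 and 931 CPM in Mac III. Mac V followed with 489.5 and 354.6 CPM, and Mac II with 257.9 and 166.9 CPM. The ranges of Mac IV and Mac III overlapped between the animals, and both animals of Mac III were above both of Mac V. Neutrophils held 56.3 and 75.8 CPM and mast cells 31.2 and 34.98 CPM. No Hmox1 read was found in basophils, DC III or IL cells of either animal, and 1 read in mast cell II.

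Within the macrophage subtypes Hmox1 was concentrated in a few cells. There were 390 Mac III cells. In those of the female the median was 312.2 CPM, the 90th percentile 10731 CPM and the highest cell 24158 CPM. In those of the male these values were 199.04, 2729 and 18218 CPM. The 10% of Mac III cells with the most Hmox1 reads held 67.96% of its reads in the female and 64.5% in the male, and the same share of Mac IV cells held 81.4% and 70.3%. Plates of one animal differed as well. Mac IV of the female had 6713 CPM on its first CD45 plate, which was sequenced in a run of its own, and 1005 CPM on its second, against 2314 and 1573 CPM on the plates of the male. Mac III had 2969 and 2976 CPM on the plates of the female and 1057 and 827 CPM on those of the male.

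Nqo1, the quinone reductase, did not exceed 49.7 CPM in any library of the 15 subtypes. Its highest levels were 49.7 and 12.9 CPM in mast cell II, followed by 10.51 and 4.39 CPM in Mac III, and T cells had 0 and 14.7 CPM. The subtype labelled mast cell had 0 and 2.61 CPM. The name mast cell II is not borne out by the mast cell markers Cpa3, Tpsb2, Mcpt4 and Kit. They summed to 308.8 and 409.2 CPM in mast cell II, where 2 of the 4 had no read, against 128660 and 127908 CPM in mast cells. In mast cell II, 1 cell held 51.3% of the Nqo1 reads of the female and 1 cell 96.5% of those of the male. On the plates of the shared sequencing run alone, mast cell II of the female had 2.74 CPM and Mac III of the female 17.3 CPM. After each cell had been thinned to 100000 reads, Nqo1 had a read in 5 of 14 and 1 of 8 mast cell II cells, and in 16 Mac III cells of each animal (8.84% and 7.69%).

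The glutathione genes did not share 1 subtype. Slc7a11, the cystine importer that supplies cysteine for glutathione, was highest in neutrophils, at 448 and 507 CPM, and next in Mac III, at 237.4 and 218.7 CPM. In Mac IV it was at 87.2 and 8.31 CPM, and in Mac V at 45.3 and 16.7 CPM. By summed level Mac IV and Mac V overlapped in Slc7a11, whereas Mac III lay above both and neutrophils above Mac III in both animals. The median cell had 25.5 and 123.2 CPM in neutrophils and 73.8 and 57.7 CPM in Mac III, so in the female this order was reversed. On the first CD45 plate of the female neutrophils were at 220.3 CPM and Mac III at 221.8 CPM. On her second plate they were at 653.8 and 251.04 CPM, and on each plate of the male neutrophils were above Mac III. The ligase that joins cysteine to glutamate is built from a catalytic subunit, encoded by Gclc, and a modifier subunit, encoded by Gclm, and these differed in place. Gclm was at 204.6 and 130.5 CPM in Mac III, 195.7 and 135.5 CPM in mast cell II and 148.9 and 84.1 CPM in Mac IV, and these ranges overlapped. Mac V held 16.9 and 13.1 CPM of Gclm, below all of them.

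Gclc was far higher in DC III than elsewhere, at 1785 and 874 CPM, while the highest library of any other subtype had 111.5 CPM, in IL cells of the male. Mac III had 79.1 and 56.3 CPM of Gclc on the CD45 plates of the female and 51.9 and 27.6 CPM on those of the male, and neutrophils had 1 and 20 reads. DC III is a class of 11 cells per animal that carries Ccr7, Fscn1, Ccl22 and Cacnb3, markers of migrating dendritic cells, at a sum of 14504 and 11013 CPM. Gclc reached 100 CPM in 9 of 11 and 8 of 11 DC III cells, against 13.3% of 587 and 8.54% of 574 other cells. One cell held 66.5% of the Gclc reads in DC III of the female and one cell 51.8% in the male, and the median DC III cell had 729 and 487 CPM.

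Gsr, glutathione reductase, which returns oxidized glutathione to its reduced form, was highest in neutrophils at 2254 and 1222 CPM. Mac V followed at 814 and 513 CPM, basophils at 856 and 233.8 CPM and Mac III at 453 and 289.3 CPM. Mac IV had 158.8 and 30.4 CPM of Gsr, and both animals of Mac IV were below both of Mac III. The level in Mac IV of the female was 319.03 CPM on its first CD45 plate and 10.97 CPM on its second.

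Of the thioredoxin genes, Txnrd1, Prdx1 and Srxn1 had their highest mean level in Mac III. Txn1 had its highest mean in DC III, where its range overlapped that of Mac III. DC III was low in Txnrd1, at 17.3 and 47.3 CPM, and in Prdx1, at 585 and 206.9 CPM. Txnrd1, thioredoxin reductase 1, was at 360.9 and 280.5 CPM in Mac III, 83.6 and 61.6 CPM in Mac IV, 76.3 and 55.1 CPM in Mac V and 5.55 and 63.5 CPM in neutrophils. Both animals of Mac III were above every other library of the 15 subtypes. Txn1, thioredoxin itself, was broadly present, from 152.4 CPM in basophils of the female to 1769 CPM in DC III of the male, with 1055 and 1185 CPM in Mac III. Prdx1, a peroxidase that thioredoxin reduces, was at 3263 and 2599 CPM in Mac III, 2055 and 1504 CPM in Mac IV, 525 and 709 CPM in Mac V and only 44.2 and 116.6 CPM in neutrophils. Srxn1, sulfiredoxin, which repairs overoxidized peroxiredoxins, was at 93.3 and 52.3 CPM in Mac III, 81.7 and 32.2 CPM in Mac IV, and 0 and 1.05 CPM in neutrophils. Of the 10 members, 4 had their highest mean level in Mac III, 2 in DC III, 2 in neutrophils, 1 in Mac IV and 1 in mast cell II.

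**Figure D2:**
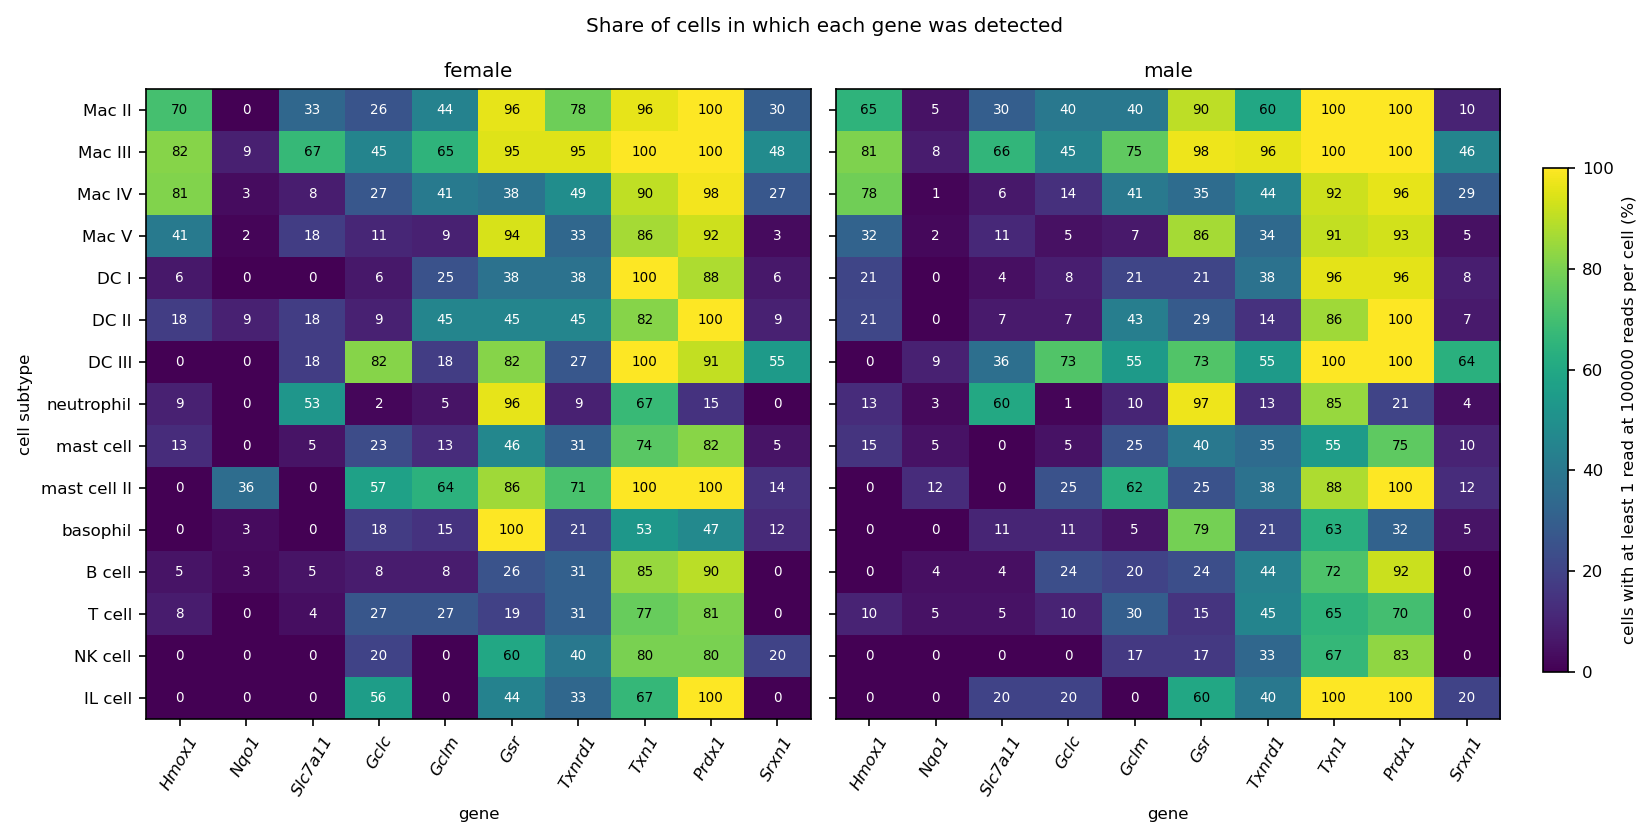
Percent of cells with at least 1 read of each gene after thinning each cell to 100000 reads, for the female (left) and the male (right), with subtypes in rows and genes in columns. Mac III cells hold most members in most cells, Mac IV cells rarely hold Slc7a11, and neutrophils rarely hold Prdx1 or Txnrd1.

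The share of cells with a read was counted at 100000 reads per cell, with exact binomial 95% intervals that cover counting error only. Prdx1 and Txn1 were found in every Mac III cell of both animals. Txnrd1 was found in 95.03% (interval 90.8 to 97.7%) and 96.2% (92.6 to 98.3%) of Mac III cells, against 49.2% and 44.3% of Mac IV cells. Slc7a11 was found in 66.9% (59.5 to 73.7%) and 65.9% (58.99 to 72.3%) of Mac III cells but in 5 of 63 and 5 of 79 Mac IV cells. In neutrophils, where its summed level was above that of Mac III, Slc7a11 was found in 52.7% and 60.3% of cells, Gsr in 96.4% and 97.4%, and Prdx1 in 14.5% and 20.5%. As a view of stray reads, C1qa was found in no Mac III cell of either animal, which allows a share of up to 1.66% and 1.44% by a limit of 3 cells, while S100a8 was found in 56.9% and 51.9% of them. Hmox1 was found in 81.8% and 80.8% of Mac III cells and in 80.95% and 78.5% of Mac IV cells.

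**Figure D3:**
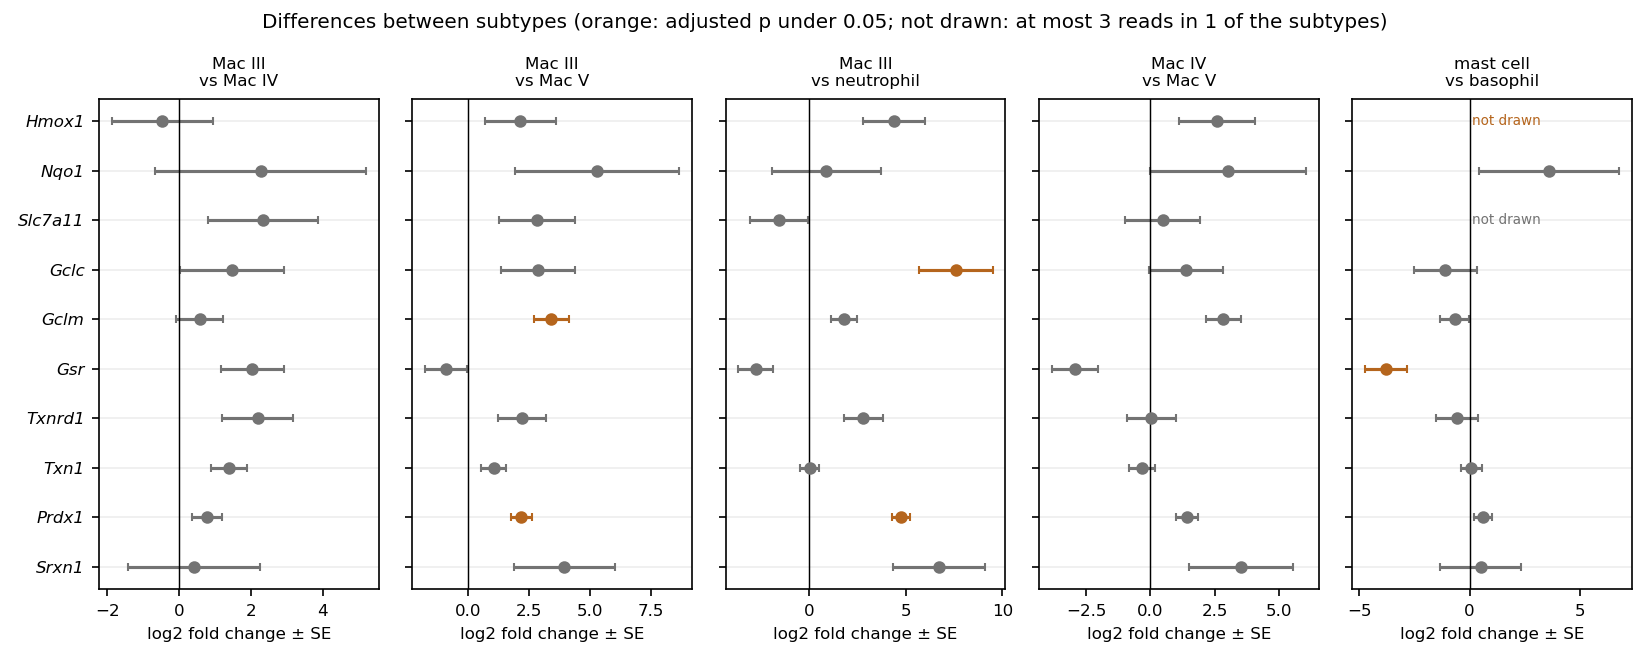
Fitted log2 fold change (first subtype over second) with its standard error for each gene in 5 comparisons, from edgeR on 2 libraries per subtype, with a separate horizontal scale in each panel. Orange marks an adjusted p under 0.05, which 0, 2, 2, 0 and 2 members reach from left to right; a gene with at most 3 reads in 1 of the subtypes is not drawn.

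Subtypes were compared with the quasi-likelihood test of edgeR on counts summed per animal, with Benjamini-Hochberg adjustment over 15379 genes. A gene was called at an adjusted p under 0.05. With 2 animals, the p-values rest on the spread between them within a subtype, pooled over all subtypes in the fit and not only the 2 compared. The same 2 animals supply every subtype. The subtype labels probably rest on expression of these same cells, so a call describes how labelled classes differ.

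Mac III against Mac V gave 2 called members of 10, where 1.34% of all genes were called. Gclm was higher in Mac III by 3.42 ± 0.71 (SE) on the log2 scale (edgeR adjusted p = 0.0282), and Prdx1 by 2.19 ± 0.43 (edgeR adjusted p = 0.0194). The fitted difference was positive for 9 members, with a median log2 fold change of 2.52 against 0.13 over all genes, and Gsr was the exception at -0.90 ± 0.85. With any 1 of the 4 libraries left out neither gene passed, and over all 12 alternatives the edgeR or DESeq2 adjusted p ranged from 5.47e-08 to 0.499 for Gclm and from 1.27e-05 to 0.208 for Prdx1.

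Mac III against neutrophils also gave 2 called members, where 4.66% of all genes were called. Prdx1 was higher in Mac III by 4.75 ± 0.48 (SE) on the log2 scale (edgeR adjusted p = 9.18e-05), and this call held in all 12 alternatives, with adjusted p from 1.91e-23 to 0.0284. Gclc was higher by 7.60 ± 1.90 (edgeR adjusted p = 0.0347), and was called in 1 of the 4 fits that left out a library. Hmox1, at 4.41 ± 1.61, had an edgeR adjusted p of 0.14, and Txnrd1, at 2.82 ± 1.01, one of 0.132. Gsr, at -2.74 ± 0.90, had an edgeR adjusted p of 0.102, and 0.034 with the animal as a block. Slc7a11, whose summed level was higher in neutrophils in both animals, gave -1.54 ± 1.49 and was not called. DESeq2 called 7 members in this comparison, 6 higher and 1 lower in Mac III. The median of the members was 2.32 against 0.23 over all genes.

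Mac III against Mac IV gave 0 called members in edgeR and 0 in DESeq2, with 3 at an unadjusted p under 0.05, where 0.754% of all genes were called. These 3 were Txnrd1, at a log2 fold change of 2.19 ± 0.99 (SE), Gsr at 2.04 ± 0.87 and Txn1 at 1.39 ± 0.51. Hmox1 was at -0.47 ± 1.40, and at 0.46 in the shared sequencing run alone. Slc7a11 was at 2.33 ± 1.53, and neither of these genes was called. For Slc7a11, both animals of Mac III were nevertheless above both of Mac IV by summed level. The fitted difference was positive for 9 members, with a median of 1.43 against 0 over all genes.

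Mac IV against Mac V gave 0 called members in edgeR, 3 at an unadjusted p under 0.05 and 3 in DESeq2, where 0.585% of all genes were called. The 3 were Gclm at 2.85 ± 0.69, Prdx1 at 1.42 ± 0.42 and Gsr at -2.94 ± 0.91 (log2 fold change and SE), the same 3 that DESeq2 called. With the animal as a block, Gsr had an edgeR adjusted p of 0.0499.

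Mast cells and basophils, which both carry the IgE receptor, differed in 2 members, where 5.23% of all genes were called. Hmox1 had 2893 reads in mast cells and 0 reads in basophils (edgeR adjusted p = 0.0155). It was nevertheless found in few mast cells (5 of 39 and 3 of 20), so no fold difference is given. Gsr was lower in mast cells by 3.81 ± 0.94 (SE) on the log2 scale (edgeR adjusted p = 0.0315), with 51.8 and 35.3 CPM in mast cells. Without 1 library, Hmox1 was called in 2 of 4 fits and Gsr in 1 of 4.

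DC III was set against the other dendritic subtypes after its Gclc level had been seen, in a fit over all 15 subtypes that tested 15600 genes. Against DC I, 3 members were called, where 4.03% of all genes were called. Gclc was higher in DC III by 8.17 ± 2.04 (SE) on the log2 scale (edgeR adjusted p = 0.0263), and Slc7a11, at 2.49 and 42.5 CPM in DC III, by 7.60 ± 2.13 (edgeR adjusted p = 0.046, and 0.0528 with the animal as a block). Hmox1 had 0 reads in DC III and 1746 reads in DC I (edgeR adjusted p = 0.0148). Against DC II, 3 members were called, where 4.58% of all genes were called. Gclc was higher in DC III by 8.68 ± 2.08 (edgeR adjusted p = 0.0183) and Txn1 by 2.05 ± 0.56 (edgeR adjusted p = 0.0369). Hmox1 had 0 reads in DC III and 936 reads in DC II (edgeR adjusted p = 0.0126). The Hmox1 reads came from few cells, 1 of 16 and 7 of 24 in DC I and 3 of 11 and 3 of 14 in DC II. Slc7a11 in DC III rested on few cells as well. There 1 cell held 68% of its reads in the female and 1 cell 71.6% in the male. The median DC III cell had 0 and 1.02 CPM of Slc7a11, and the DC I libraries had 0.0773 and 0.207 CPM. Both comparisons use the same DC III libraries. Gclc was called in 1 of the 4 fits that left out a library, against DC I and against DC II alike, with an edgeR adjusted p of up to 0.19. Slc7a11 against DC I and Txn1 against DC II were also called in 1 of 4, with adjusted p up to 0.272 and 0.198, and Hmox1 in 2 of 4 in each comparison, with adjusted p up to 0.103.

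Few regulators of the pathway were called. Of 11 regulators (Nfe2l2, which encodes Nrf2, Keap1, Bach1, Bach2, Cul3, Rbx1, Maff, Mafg, Mafk, Nfe2l1 and Sqstm1), edgeR called 0 in the 3 comparisons of Mac III and in Mac IV against Mac V. At an unadjusted p under 0.05 there were 0 against Mac IV, 2 against Mac V and 2 against neutrophils, and DESeq2 called 0, 2 and 0. For Mac IV against Mac V both counts were 0. Nfe2l2 was at 132.5 and 150.1 CPM in Mac III, 276.4 and 213.9 CPM in Mac IV and 440.3 and 336.4 CPM in Mac V. In mast cells against basophils 2 of the 11 were called, against 5.23% of all genes: Mafg, a small Maf partner of Nrf2, was lower in mast cells by 2.51 ± 0.50 (SE) on the log2 scale (edgeR adjusted p = 0.00904), and Bach2 had 3216 reads in mast cells and 1 read in basophils (edgeR adjusted p = 0.0221). Without 1 library, Mafg was called in 2 of 4 fits and Bach2 in 1 of 4.

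Among 22 other genes of the Nrf2 type, the ferritin chains were the ones that edgeR called higher in Mac III. Fth1, the heavy chain that stores iron, was at 30021 and 29010 CPM in Mac III, and was higher than in Mac IV by 1.72 ± 0.32 (SE, log2; edgeR adjusted p = 0.0158), than in Mac V by 3.10 ± 0.33 (edgeR adjusted p = 0.000247) and than in neutrophils by 2.22 ± 0.32 (edgeR adjusted p = 0.00115). Ftl1, the light chain, was higher than in Mac V by 2.16 ± 0.31 (edgeR adjusted p = 0.00235) and than in neutrophils by 2.33 ± 0.31 (edgeR adjusted p = 0.000686). These calls held in all fits that left out a library, except that of Fth1 against Mac IV, which was called in 0 of 4 (adjusted p up to 0.136 over all alternatives). Over all genes 0.754%, 1.34% and 4.66% were called. No other gene of this list was called by edgeR in these 3 comparisons. Of the 22, 8, 6 and 8 had an unadjusted p under 0.05 and DESeq2 called 2, 4 and 7. The median log2 fold changes of the list were 0.69, 1.12 and 0.85, against 0, 0.13 and 0.23 over all genes. In Mac IV against Mac V edgeR called 0 of the 22, with 8 at an unadjusted p under 0.05 and 6 in DESeq2. In mast cells, Taldo1 and G6pdx of the pentose phosphate pathway, which supplies NADPH, were lower than in basophils by 3.41 ± 0.34 (edgeR adjusted p = 5.29e-05) and by 2.44 ± 0.66 (edgeR adjusted p = 0.0453), and Ephx1 had 3496 reads in mast cells and 0 in basophils (edgeR adjusted p = 0.0473, and 0.0638 with the animal as a block). Without 1 library, Taldo1 was called in 4 of 4 fits, G6pdx in 1 and Ephx1 in 0.

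Of 14 partners of glutathione and thioredoxin, 3 were called in Mac III against neutrophils, where 4.66% of all genes were called, in the direction opposite to Prdx1. The median of the 14 was 0.39 against 0.23 over all genes. Prdx5 was lower in Mac III than in neutrophils by 2.08 ± 0.46 (SE, log2; edgeR adjusted p = 0.02), Prdx6 by 2.12 ± 0.47 (edgeR adjusted p = 0.0196) and Txnip, which binds and inhibits thioredoxin, by 2.76 ± 0.65 (edgeR adjusted p = 0.0266), and 0 of the 14 were called higher. Each of these 3 was called in 1 of the 4 fits that left out a library. In mast cells against basophils 3 of the 14 were called, against 5.23% of all genes. Prdx4 had 11916 reads in mast cells against 0 in basophils (edgeR adjusted p = 5.5e-05). Prdx6 was lower in mast cells by 2.76 ± 0.48 (edgeR adjusted p = 0.00404) and Prdx5 by 1.75 ± 0.46 (edgeR adjusted p = 0.0384). With 1 library left out, Prdx4 and Prdx6 were called in 4 of 4 fits and Prdx5 in 2. Against Mac IV, against Mac V and in Mac IV against Mac V edgeR called 0 of the 14, with 1, 3 and 4 at an unadjusted p under 0.05 and 0, 2 and 2 in DESeq2.

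Of 9 genes of heme handling, which share Fth1, Ftl1, Blvrb and Slc48a1 with the list of targets, Blvra, the biliverdin reductase that acts after heme oxygenase, was higher in Mac III than in neutrophils by 5.50 ± 0.49 (SE, log2; edgeR adjusted p = 2.67e-05), with 275.98 and 292.7 CPM against 4.03 and 5.05 CPM. With Fth1 and Ftl1 this made 3 of the 9 called, against 4.66% of all genes. Slc40a1, the iron exporter, was at 757 and 450 CPM in Mac IV and 0.203 and 0.0652 CPM in Mac V (edgeR adjusted p = 0.0338, and 0.053 with the animal as a block). It was the 1 gene of the 9 called there, against 0.585% of all genes, and was called in 0 of the 4 fits without 1 library. In mast cells against basophils edgeR called 0 of the 9, with 1 at an unadjusted p under 0.05 and 1 in DESeq2. Of 8 genes of the Atf4 type, which also respond to amino acid shortage, edgeR called Ddit3, higher in mast cells than in basophils by 2.45 ± 0.63 (edgeR adjusted p = 0.0372, and called in 0 of the 4 fits without 1 library; 5.23% of all genes were called), and 0 in the other 4 comparisons. There, in the order Mac IV, Mac V and neutrophils against Mac III, 2, 4 and 2 had an unadjusted p under 0.05 and DESeq2 called 1, 3 and 2, and for Mac IV against Mac V these counts were 0 and 1.

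**Figure D4:**
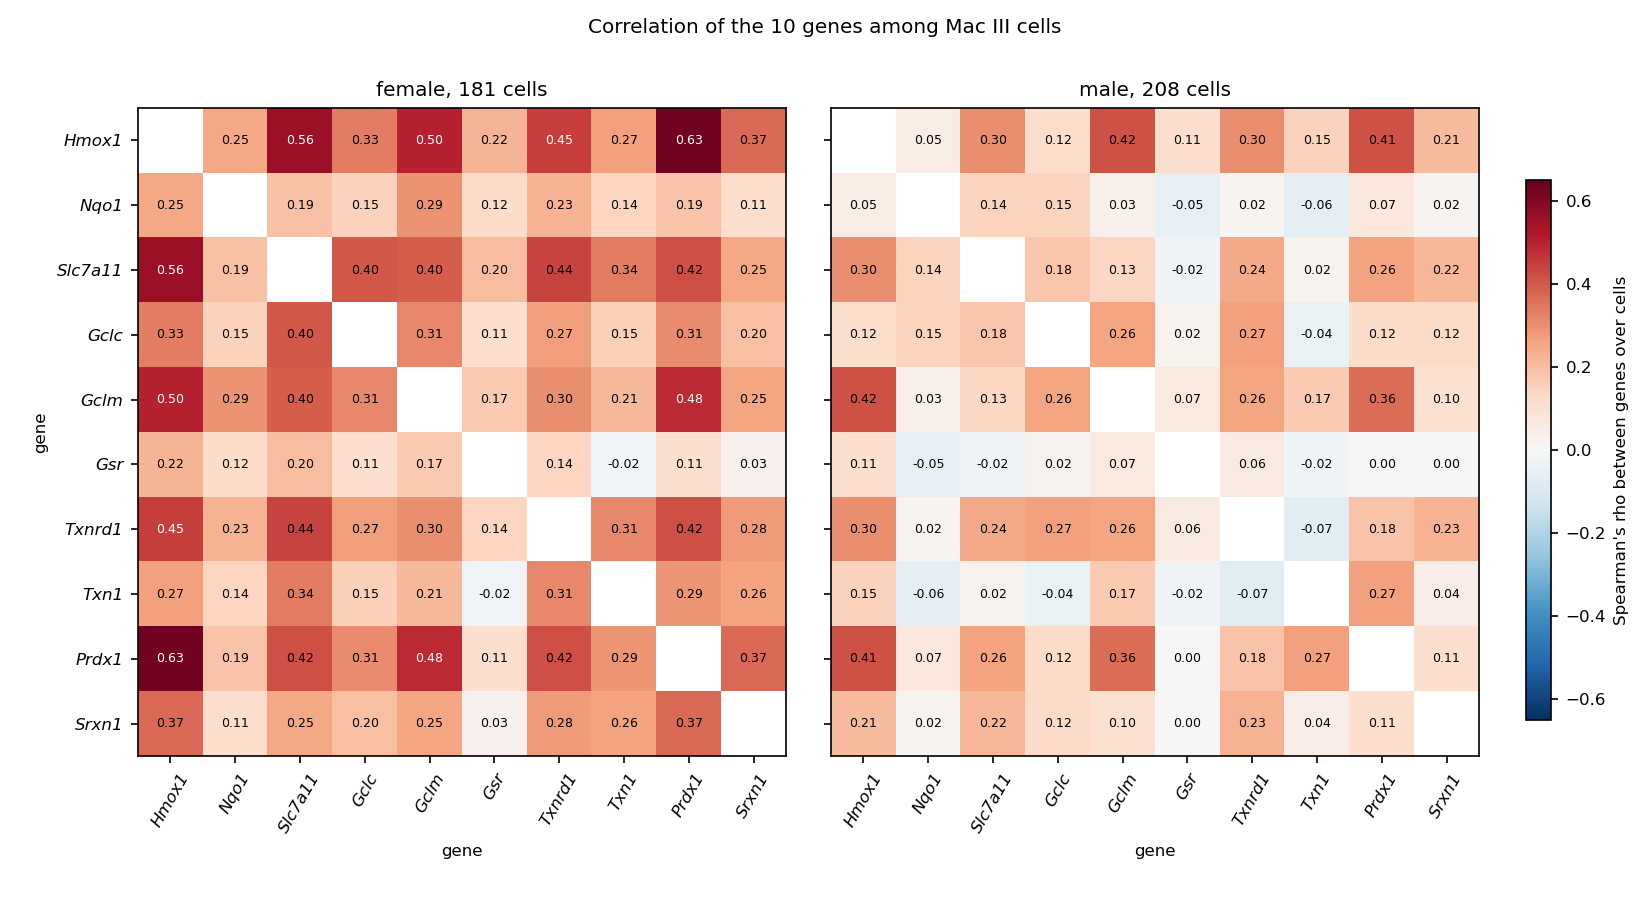
Spearman's rho between each pair of the 10 genes over single Mac III cells thinned to 100000 reads, in the female (left) and the male (right). Pairs of Hmox1 with Prdx1, Gclm and Slc7a11 have the highest values in the female, and most pairs with Gsr or Nqo1 are near 0 in the male.

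Among Mac III cells most pairs of members had a positive correlation over cells, which was weaker in the male than in the female. The 390 cells of both animals were used except 1 with fewer than 100000 reads. Over the 45 pairs the median Spearman's rho was 0.267 in the female, with a range from -0.017 to 0.626, and 0.122 in the male, with a range from -0.066 to 0.416. It was above 0 for 44 pairs in the female and 38 in the male, and above 0.3 for 18 and 5 pairs. For comparison, over all pairs of the 3388 genes with a read in at least 50% of Mac III cells of both animals the median rho was 0.00778 and 0.00749 and the 95th percentile 0.139 and 0.131. The 7 members that met that condition had a median of 0.312 and 0.169. These are correlations across cells that share an animal and plates, and they are given as a description.

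The pairs with the highest mean rho joined Hmox1 with Prdx1, at 0.626 in the female and 0.413 in the male, with Gclm, at 0.498 and 0.416, and with Slc7a11, at 0.558 and 0.303. Gclm and Prdx1 gave 0.484 and 0.362. Gclc and Gclm, the subunits of one ligase, gave 0.314 and 0.258. Txn1 and Gsr gave -0.017 and -0.023, and Txnrd1 with Txn1, enzyme and substrate, gave 0.312 in the female and -0.066 in the male. Correlation with the total reads of a cell was between -0.0691 and 0.216 in the female and between -0.178 and 0.262 in the male. With the number of genes detected in a cell it was between 0.0257 and 0.220 in the female, positive for all 10 members, and between -0.200 and 0.239 in the male. The part of these in the values between members was not tested.

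**Figure D5:**
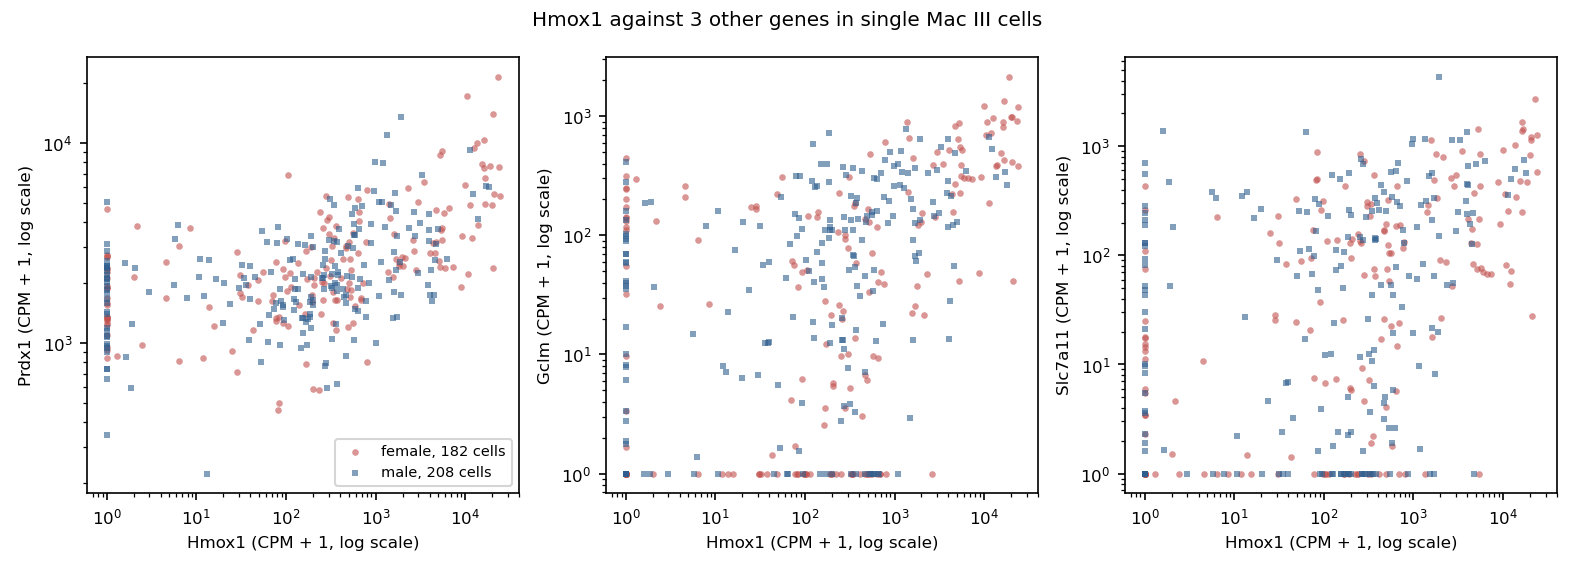
Hmox1 against Prdx1, Gclm and Slc7a11 in single Mac III cells, each as CPM plus 1 on log scales; circles are cells of the female and squares cells of the male, and cells with no read lie at 1. Of the cells with at least 10000 CPM of Hmox1, 20 are from the female and 5 from the male, and most lie high in Prdx1 and Gclm.

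Within plates the median rho was 0.197 and 0.331 on those of the female and 0.127 and 0.112 on those of the male. Cycling cells, counted by at least 5 reads of at least 4 of 10 cell cycle genes, numbered 24 in the female and 30 in the male, and without them the median was 0.267 and 0.123. Hmox1 was at 2245 CPM in cycling and 3073 CPM in other Mac III cells of the female, and at 754 and 962 CPM in the male. Prdx1 was at 2727 and 3335 CPM, and at 1981 and 2710 CPM. By summed CPM, Gsr, Txnrd1 and Txn1 were higher in cycling cells in both animals by at most 0.32 on the log2 scale, with no test since each animal gives 1 value. By the median over cells Gsr was higher in both, but Txnrd1 in the female was at 217.5 CPM in cycling and 251.9 CPM in other cells, and Txn1 in the male at 895 and 1053 CPM.

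The genes most like the mean rank of the 10 members over Mac III cells, ranked by the lower rho of the animals among 3381 genes, were Fth1, at 0.714 in the female and 0.525 in the male, Esd, at 0.646 and 0.434, Ftl1, at 0.645 and 0.432, Pgd, at 0.430 and 0.403, and Fth-ps3, at 0.495 and 0.371. Fth1, Ftl1 and Pgd were on the list of other targets, and Fth-ps3 is a pseudogene whose reads cannot be separated from those of Fth1 with certainty.

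Across the 30 libraries of subtype and animal, the pattern of Hmox1 was most like those of Rin2 (rho 0.908), Man1c1 (0.886) and Lyz2 (0.870) among 12184 genes. That of Slc7a11 was most like those of Bri3 (0.794), Prex2 (0.790) and Clec7a (0.786). A gene was ranked if at least 1 library reached 20 CPM, and a like order is not a like level. Prex2 was at 0.215 and 0.416 CPM in Mac III and 3.68 and 7.30 CPM in Mac IV. Bri3 was at 109.7 and 153.6 CPM in Mac III and 105.5 and 115.1 CPM in Mac IV. Clec7a was at 1609 and 1382 CPM in Mac III and 318.1 and 119.98 CPM in Mac IV. Between members the highest rho over these libraries was 0.647, for Txnrd1 with Prdx1, and the lowest was -0.191, for Hmox1 with Gclc. Hmox1 and Prdx1, the leading pair over Mac III cells, gave 0.386 over libraries.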

How the data were processed

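The labels describe plate-based single-cell libraries made with Tn5. The deposited table holds counts, whole numbers of reads per gene and cell, which the authors made before deposit; the submitters' processing notes name STAR 2.5.2b, HTSeq 0.10 and the build GRCh38, a human build, with no role, while the symbols are mouse. The build behind the counts is therefore not used. Cell subtypes and animals were taken from the labels. Counts were summed per animal and subtype and tested with edgeR 4.0.16 (R 4.3.3; TMM, filterByExpr, 1 coefficient per subtype) over the 10 subtypes in which both animals had 15 cells or more, 20 libraries of 19673065 to 235566546 reads; the script was tested on simulated data. DESeq2 1.42.0 and other settings were alternatives. The members and gene lists were chosen with earlier results of these data known. All members were named; from each list, up to 4 called genes with at least 20 CPM were named by size of change. Libraries of different subtypes come from the same 2 animals, so they are paired; female-minus-male deviations had correlations from -0.0594 to 0.0778 over 45 pairs of subtypes. Shares and correlations used each cell thinned once to 100000 reads, which left out 5 cells. Reads carry no molecular identifiers, so intervals cover counting error only. No doublet caller was run, and no 2 cells had identical counts.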

Additional observations from a re-analysis of the deposited data

How the results depend on the processing

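Of 70 differences of a member in a comparison, the 12 called ones kept their direction in every fit, and 18 of the 58 others changed sign in at least 1 fit. All fits reuse the same 2 animals, and calls pick out differences that are large for their error, so this contrast is no separate support for the calls. Hmox1 had 0 reads in basophils and in DC III, so its called differences could not change sign. Hmox1 in Mac III against Mac IV was at 0.46 with only the shared sequencing run and from -1.52 to 0.16 with 1 library left out. The number of called members depended on the fit. With only the subtypes compared in the fit it was 2, 6, 3 and 2 for Mac III against Mac IV, Mac V and neutrophils and for Mac IV against Mac V, and 1 for mast cells against basophils. With all 15 subtypes it was 0, 0, 1, 0 and 1, with only the shared sequencing run 0, 1, 1, 0 and 1, and with every cell brought to an equal total it was 1 for Mac IV against Mac V. DESeq2 called 7 for Mac III against neutrophils and 3 for Mac IV against Mac V. In the paired fit, with the animal as a block, 1 member was called for Mac IV against Mac V, 3 for Mac III against neutrophils (Gsr in addition), and 4 for DC III against DC II (Gsr in addition, edgeR adjusted p = 0.00877); for DC III against DC I the block also called 3, with Gsr (adjusted p = 0.0280) in place of Slc7a11 (0.0528). The block ended the calls of Slc7a11, Ephx1 and Slc40a1 given above. With 1 library left out, where the lone library is taken to vary like the others, the count was 0 to 0 for Mac III against Mac V, 1 to 3 for Mac III against neutrophils, 0 to 1 for mast cells against basophils, and 1 to 1 for DC III against DC I and against DC II, which were added after seeing the data. The share of all tested genes called ranged from 0.263 to 11.96% for Mac III against Mac IV, 0.442 to 10.47% against Mac V, 1.41 to 20.6% against neutrophils, 0.167 to 10.6% for Mac IV against Mac V and 1.71 to 23.5% for mast cells against basophils over the other settings. With 1 library left out it was 0.104 to 0.372, 0.256 to 0.425, 1.16 to 6.18, 0.0668 to 0.0977 and 2.29 to 5.91%, against 0.754, 1.34, 4.66, 0.585 and 5.23% as reported. DESeq2 size factors moved the median of all genes in Mac IV against Mac V from 0.07 to 0.27 and the split from 41 higher and 49 lower to 40 and 32. The share of Mac III cells with a member, over 10 members and both animals, was 62.6% at 5 reads or more and 76.1% without thinning, against 71.001% as reported. The median correlation among Mac III cells had a mean of 0.194 and an SD of 0.103 over the 2 animals, and other settings moved the mean by less than this SD. It was 0.258 and 0.138 by Pearson correlation of log2 CPM plus 1, and 0.331 in the female in the shared run alone. Leaving out 1 animal cannot move the mean by more than this SD, so that setting is no check. With the mean of per-cell CPM, Gclm was highest in mast cell II and Nqo1 in DC II, and in the shared run Hmox1 and Nqo1 were highest in Mac III. The cause of these changes was not tested.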
